A study of Mus musculus with 10 samples.

Results

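The proteasome is the barrel-shaped protease that degrades ubiquitin-tagged proteins, and its genes were followed here in 10 RNA-seq libraries of mouse blood. Members were all genes of the deposited table whose symbol begins with Psma, Psmb, Psmc, Psmd or Psme and a digit, leaving out 2 pseudogenes with a -ps suffix. The rule found 46 of the 30984 genes in the table. They were 7 alpha ring subunits, 4 structural and 3 catalytic constitutive beta subunits, 6 ATPases, 11 non-ATPase subunits of the regulatory particle, 3 base chaperones, 2 other activators, the copy gene Psme2b and 2 genes restricted to other tissues. The remaining 7 were the 5 immunoproteasome and PA28 genes Psmb8, Psmb9, Psmb10, Psme1 and Psme2, and 2 genes that match the rule by name alone. Psmc3ip is a meiotic recombination factor, and Psme3ip1 encodes a protein that binds the Psme3 activator.

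Treatment is labelled burn wound healing for 6 libraries (burn), and the same with the suffix NC for the other 4 (NC). NC is not spelled out, and the labels do not name strain, sex or age, and do not say which libraries, if any, received manganese chloride, which the series title names. The tissue is whole blood by label, yet lymphocyte stands under cell line and monocytes under cell type, and the title speaks of mononuclear cells. All 6 B cell, 7 T cell, 6 natural killer cell, 6 neutrophil, 6 monocyte and 6 red cell markers checked had counts in every library, and 5 of 6 platelet markers did, so the libraries held RNA of all of these cell types. The labels do not tie libraries to separate animals, so p-values measure only the spread between libraries, which may be technical. Library totals ran from 31519420 to 36379663 counts in burn and from 30677206 to 35985421 in NC.

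The alpha and beta rings form the core particle, whose proteolytic sites sit inside the barrel. The ATPases and non-ATPase subunits form the regulatory particle that recognises ubiquitin, unfolds the substrate and feeds it into the core. In cells of the blood lineage, and in other cells after interferon-gamma, the catalytic subunits Psmb8, Psmb9 and Psmb10 take the places of Psmb5, Psmb6 and Psmb7 in newly built cores. The resulting immunoproteasome, with the PA28 cap of Psme1 and Psme2, changes the peptides supplied to MHC class I.

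No promoter sequence of Psmb7 was available, so its exchange pair with Psmb10 is not shown. Promoter sequences are shown for the other exchange pairs, Psmb8 with Psmb5 and Psmb9 with Psmb6, which contrast inducible with constitutive subunits. Each is the 250 bases before the RefSeq start on GRCm38.p6, the same assembly as mm10, written 5′ to 3′ on the gene's strand. The Psmb8 window is chr17:34197945-34198194, plus strand, and that of Psmb5 is chr14:54617996-54618245, minus strand. The Psmb9 window is chr17:34187331-34187580, minus strand, and that of Psmb6 is chr11:70525107-70525356, plus strand. The Psmb8 and Psmb9 windows lie inside the GENCODE spans of those genes, which begin further upstream than the RefSeq starts used. The Psmb5 window lies partly inside the GENCODE span of Psmb5, at its end nearest the RefSeq start. The Psmb9 window also reaches into the start of Tap1, a transporter gene that is read in the opposite direction. Capitals mark motif matches, searched on both strands.
Psmb8: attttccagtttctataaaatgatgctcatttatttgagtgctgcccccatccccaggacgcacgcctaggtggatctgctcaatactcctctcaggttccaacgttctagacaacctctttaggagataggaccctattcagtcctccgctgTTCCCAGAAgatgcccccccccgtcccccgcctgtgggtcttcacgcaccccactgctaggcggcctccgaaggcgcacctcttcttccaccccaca
Psmb5: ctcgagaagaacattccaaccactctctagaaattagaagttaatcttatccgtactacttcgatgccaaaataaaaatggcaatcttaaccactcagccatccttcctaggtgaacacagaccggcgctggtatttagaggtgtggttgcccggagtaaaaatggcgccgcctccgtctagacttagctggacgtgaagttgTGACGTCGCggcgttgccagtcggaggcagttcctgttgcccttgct
Psmb9: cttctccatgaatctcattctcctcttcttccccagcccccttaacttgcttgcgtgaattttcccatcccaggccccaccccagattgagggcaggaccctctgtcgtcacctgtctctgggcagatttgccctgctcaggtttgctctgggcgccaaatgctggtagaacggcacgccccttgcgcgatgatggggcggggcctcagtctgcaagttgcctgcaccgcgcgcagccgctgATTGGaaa
Psmb6: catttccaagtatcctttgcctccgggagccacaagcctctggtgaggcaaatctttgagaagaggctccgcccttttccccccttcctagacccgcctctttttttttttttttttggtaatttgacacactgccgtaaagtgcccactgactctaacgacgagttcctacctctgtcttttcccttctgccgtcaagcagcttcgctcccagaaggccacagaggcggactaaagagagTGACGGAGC

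The capitals in Psmb8 are a match to the gamma-activated site TTCNNNGAA, those in Psmb5 and Psmb6 a match to the antioxidant response element TGACNNNGC, and those in Psmb9 the CCAAT box on the other strand. The table held promoters for 39 of the 46 member genes, including all 5 immunoproteasome and PA28 genes. A member was counted if any of its promoters held the motif, whereas the share over all promoters counts each promoter singly. The gamma-activated site was found in 1 of the 39, Psmb8, against 7.02% of all 32851 promoters of that length. The antioxidant response element was found in 5 of 39 members, against 10.2% of all promoters. These 5 were Psmb5, Psmb6, Psmc6, Psmd12 and Psmd9. The CCAAT box was found in 16 of 39 members, against 33.85% of all promoters. The interferon-stimulated response element, a longer motif, was found in 3 of 39 members, Psmb3, Psmd4 and Psmd9, and in 0 of the 5 immunoproteasome and PA28 genes, against 2.98% of all promoters.

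Levels were compared between genes as deposited FPKM, which divides by the gene's length. On the deposited scale, whose length is that of all exons of a gene together, the highest member was Psme3, the gamma subunit of a nuclear activator ring, at 110.5 ± 13.2 FPKM in burn and 112 ± 46 FPKM in NC (SD, n = 6 and 4). Psme1, the alpha subunit of PA28, followed at 76.0 ± 3.6 FPKM in burn and 66.8 ± 19.0 FPKM in NC. Its partner Psme2 stood at 42.1 ± 1.9 FPKM in burn and 38.8 ± 11.1 FPKM in NC. Among core subunits the alpha ring gene Psma6 had the highest deposited FPKM, at 64.2 ± 3.6 in burn and 58.1 ± 11.5 in NC. These ranks changed with the length. Per length of the APPRIS principal transcript, chosen after seeing the data, Psme1 led at 151 ± 7 in burn and 133 ± 38 in NC, ahead of Psme3 at 122 ± 15 in burn and 125 ± 51 in NC. On that scale Psma7, another alpha ring gene, averaged 75.7 over all libraries and Psma6 averaged 73.1. The plot of FPKM by role shows the deposited scale.

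**Figure D1:**
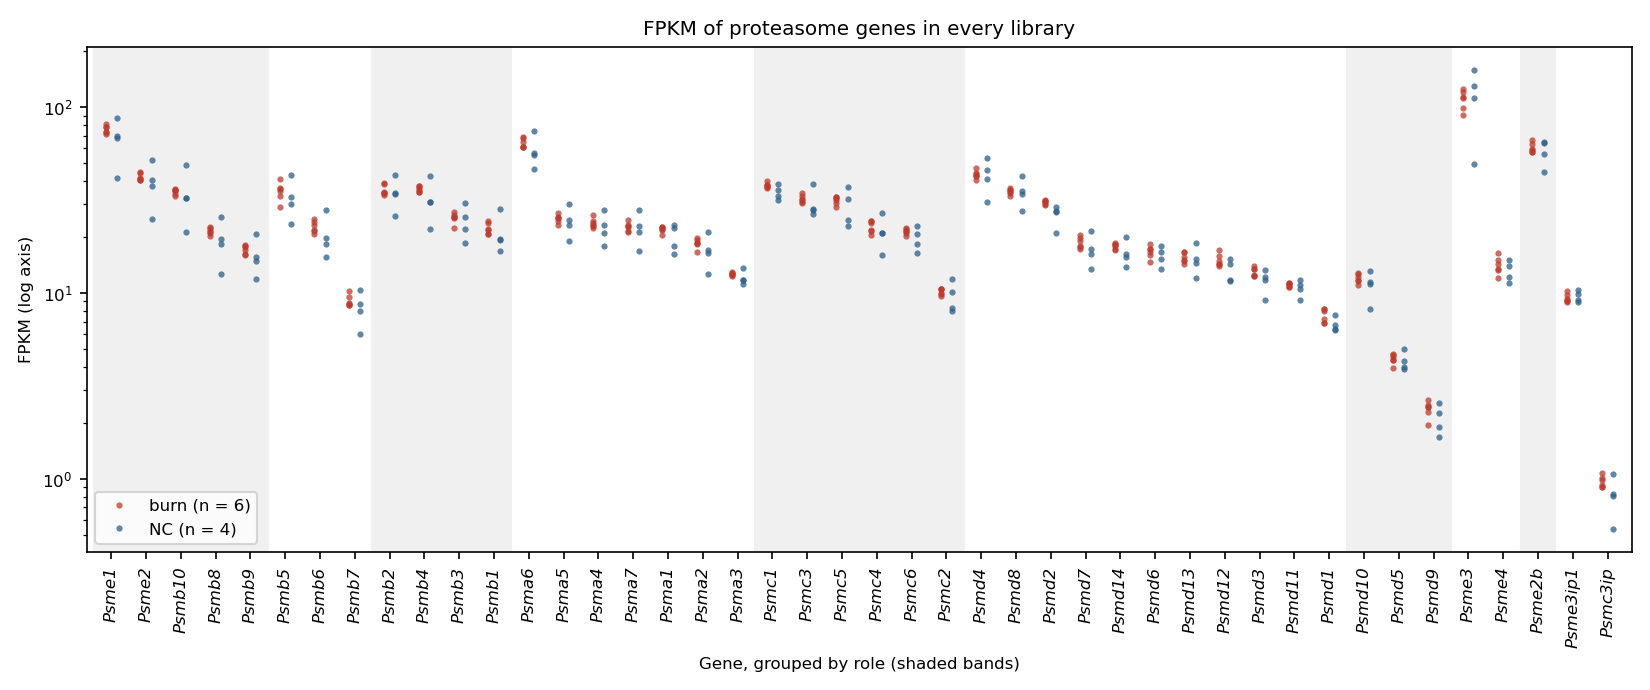
FPKM (log axis) of the 44 tested proteasome genes, grouped by role in shaded bands, with 1 point per library and burn to the left of NC. Burn points lie close together and NC points spread wider, with Psme3 reaching from 49.6 FPKM in NC 1 to 159 FPKM in NC 2.

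At the low end were genes known from other tissues. Psma8, the alpha subunit of testis, was covered by 0 to 8 reads per library in burn and 2 to 10 in NC. Psmb11, the catalytic subunit of the thymic cortex, was covered by 0 to 4 reads in burn and 0 to 2 in NC. Both fell below the filter on low counts, and the other 44 members were tested. Psmd9, a base chaperone, was the lowest of the proteasome genes proper that were tested, at 2.38 ± 0.24 FPKM in burn and 2.10 ± 0.39 FPKM in NC.

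Burn was compared with NC to ask which genes differed between the treatment groups. No proteasome gene passed. Of the 44 members, 0 had an adjusted p under 0.05 in edgeR, where 0% of the 17268 genes tested did. At an unadjusted p under 0.05 there were 0 members, where the share of all genes tested was 11.3% (4.25% higher and 7% lower in burn). DESeq2 called 0 members, where it called 0.492% of all genes. For 0 members did the burn libraries all lie on one side of the NC libraries, where this held for 2.03% of all genes. The smallest adjusted p of a member was 0.509, that of Psmd2.

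Most fitted differences were small and positive. Of the 44 members, 36 had a higher and 8 a lower fitted value in burn, with a median log2 difference of 0.06, and over all genes tested 9454 were higher and 7814 lower with a median of 0.02. In 43 of 44 members the log2 difference was smaller than 0.2 in size, the exception being Psmc3ip at 0.21, and the 95% interval included 0 in all 44. For the 31 constitutive subunits the intervals reached no further than a 0.791-fold and a 1.38-fold level in burn relative to NC. For the 5 immunoproteasome and PA28 genes the limits were 0.758-fold and 1.41-fold.

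**Figure D2:**
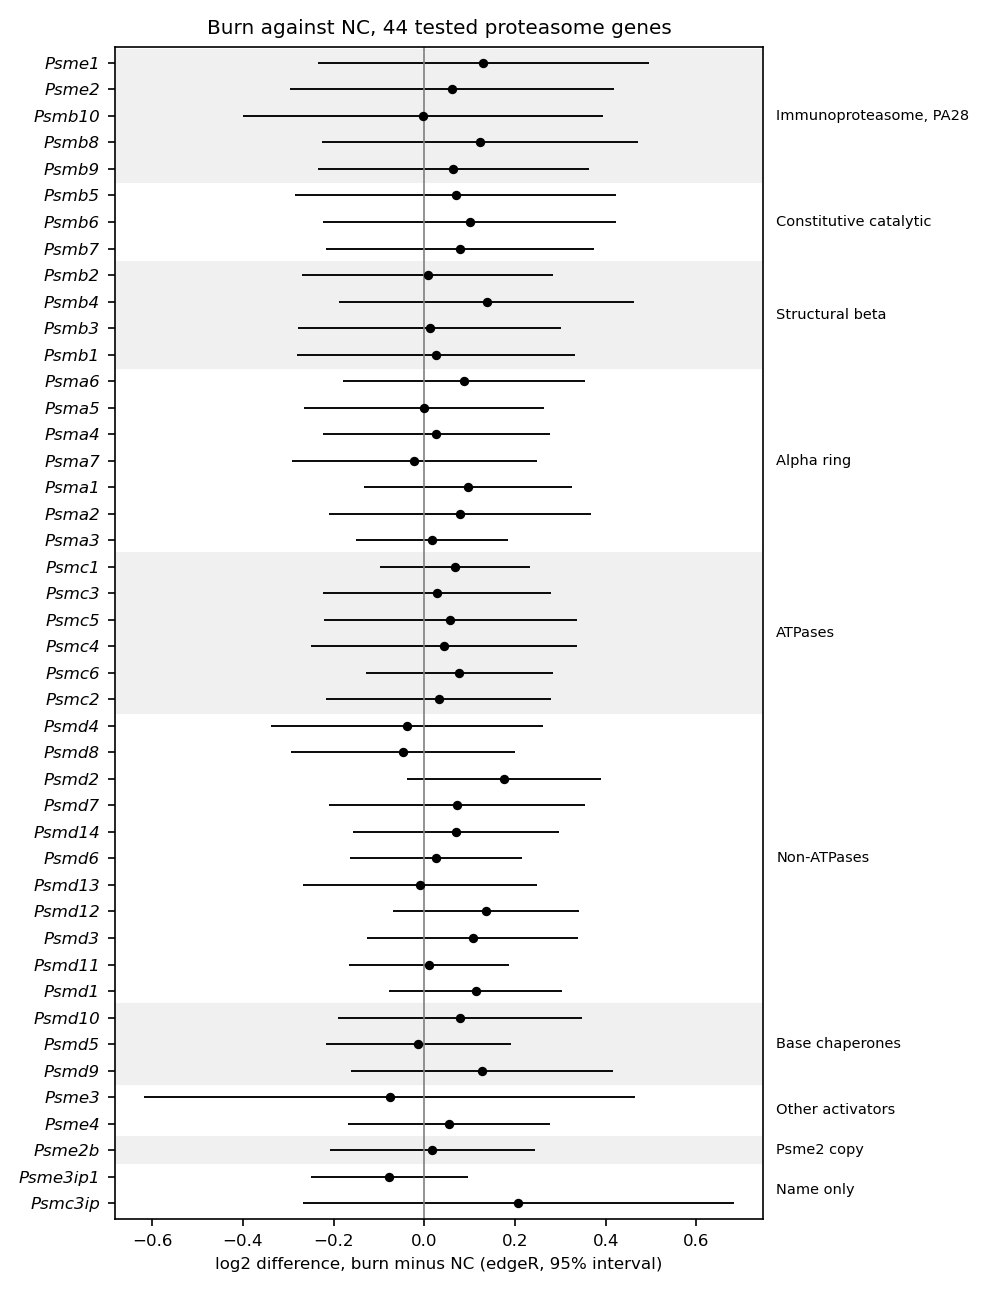
Log2 difference of burn minus NC with its 95% interval from edgeR for each of 44 proteasome genes, grouped by role from top to bottom. Every interval crosses 0, and Psme3 and Psmc3ip have the widest ones.

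The inducible catalytic subunits did not differ between the groups beyond the spread of the libraries. Psmb8 (chr17:34197721-34201454, plus strand, mm10), which takes the place of the chymotrypsin-like subunit, stood at 67.8 to 78.0 CPM in burn with a median of 71.7. In NC 1, 2, 3 and 4 it stood at 43.6, 68.3, 92.6 and 60.4 CPM. All burn libraries lay inside the NC range. The edgeR log2 difference was 0.12 (SE 0.16, 95% interval -0.23 to 0.47) with an adjusted p of 0.809.

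Psmb9 (chr17:34181987-34187764, minus strand), which takes the place of the caspase-like subunit, stood at 57.0 to 66.4 CPM in burn with a median of 63.2. Its NC values were 44.1, 56.8, 81.3 and 55.5 CPM in the same order of libraries. NC 3 was again the highest and NC 1 the lowest of all 10. Its edgeR log2 difference was 0.06 (SE 0.14) with an adjusted p of 0.894. Psmb10 (chr8:105935735-105938444, minus strand), which takes the place of the trypsin-like subunit, stood at 55.7 to 62.8 CPM in burn with a median of 59.5. Its NC values were 36.7, 57.8, 89.1 and 53.8 CPM. The group means were nearly the same, 59.2 ± 2.6 CPM across burn, against 59.3 ± 21.8 CPM across NC (SD, n = 6 and 4), and the edgeR adjusted p was 0.996.

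The PA28 pair had the same order of NC libraries as these 3 genes. Psme1 (chr14:55578123-55581529, plus strand) stood at 155 to 181 CPM in burn with a median of 165, and at 93.6, 160.1, 206 and 146 CPM in NC 1 to 4. Psme2 (chr14:55587441-55591113, minus strand) stood at 68.0 to 80.2 CPM in burn with a median of 72.4, and at 45.1, 74.1, 97.8 and 64.3 CPM in NC 1 to 4. The burn values of both genes fell within the NC range, and the edgeR adjusted p was 0.806 for Psme1 and 0.917 for Psme2. Psme2b, a copy of Psme2 on chromosome 11, stood at 46.0 to 53.8 CPM in burn and at 38.3, 49.0, 57.5 and 53.0 CPM in NC 1 to 4. The separate values of Psme2 and Psme2b are uncertain, because the counting could divide reads between near-identical copies.

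Among the constitutive catalytic subunits NC 1 was again the lowest and NC 3 the highest library, with NC 4 slightly above NC 2. Psmb5 (chr14:54614119-54618022, minus strand), the chymotrypsin-like subunit, stood at 24.8 to 37.3 CPM in burn with a median of 31.8, and at 21.5, 28.04, 41.4 and 28.6 CPM in NC 1 to 4. Psmb6 (chr11:70525367-70527858, plus strand), the caspase-like subunit, stood at 39.3 to 47.3 CPM in burn with a median of 41.5, and at 29.6, 35.7, 55.9 and 36.0 CPM in NC 1 to 4. Psmb7 (chr2:38588036-38644087, minus strand), the trypsin-like subunit, stood at 28.6 to 35.4 CPM in burn with a median of 29.8, and at 20.99, 28.6, 37.8 and 29.0 CPM in NC 1 to 4. In all 3 genes the burn values fell inside the NC range, and the edgeR adjusted p-values were 0.904, 0.835 and 0.861 for Psmb5, Psmb6 and Psmb7. The strand setting of the counting is not given in the sources used here, and exons of 15 of the 46 members overlap another gene, among them Psmb8 with Gm20496, Psmb9 with Tap1, Psmb7 with Nek6 and Psme1 with Emc9.

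The exchange between inducible and constitutive subunits was read as an FPKM ratio in each library, as a description without a test. Psmb8 over Psmb5 was 0.556 to 0.726 in burn with a median of 0.599, and 0.539, 0.648, 0.595 and 0.562 in NC 1 to 4. Psmb9 over Psmb6 was 0.675 to 0.825 in burn with a median of 0.767, and 0.762, 0.815, 0.744 and 0.789 in NC 1 to 4. Psmb10 over Psmb7 was 3.56 to 4.16 in burn with a median of 3.83, and 3.51, 4.06, 4.73 and 3.72 in NC 1 to 4. The groups overlapped in all 3 ratios, and the log2 differences of burn minus NC were 0.08, -0.04 and -0.04. Leaving out 1 library gave 0.03 (without burn 6) to 0.12 (without NC 2) for Psmb8/Psmb5, -0.07 (without burn 4) to -0.0075 (without burn 6) for Psmb9/Psmb6, and -0.10 (without NC 1) to 0.05 (without NC 3) for Psmb10/Psmb7, whose sign turned.

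**Figure D3:**
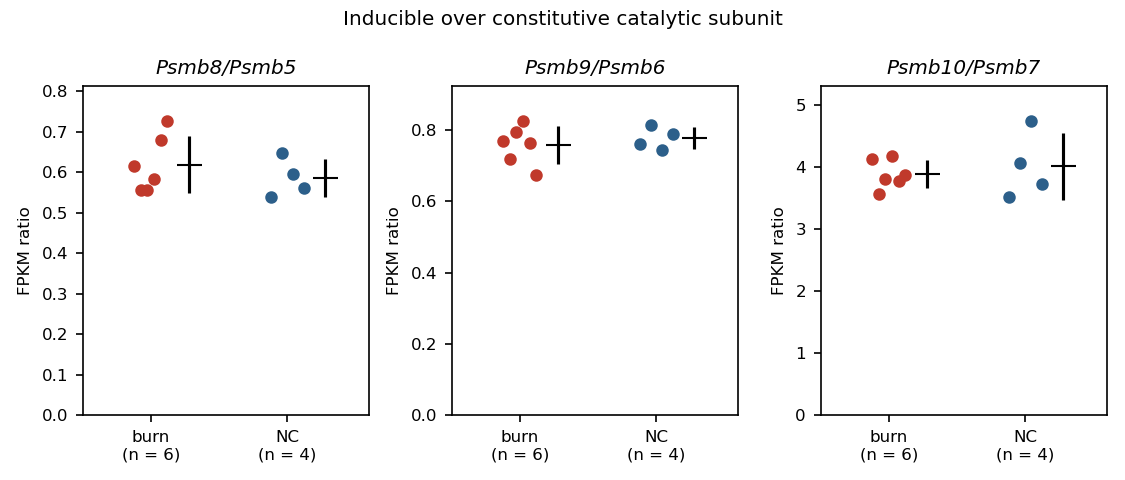
FPKM ratio of each inducible catalytic subunit to the constitutive subunit it replaces, with 1 point per library, burn to the left of NC, and the mean with SD as a bar. Groups overlap in each panel, and the highest Psmb10/Psmb7 ratio, 4.73, belongs to NC 3.

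The size of these ratios depends on the gene length used, while their difference between groups does not. The deposited FPKM uses all exons of a gene together, which is 3381 bases for Psmb8 and 899 for Psmb5. Per length of the APPRIS principal transcript, which is 1628 and 899 bases, the Psmb8 to Psmb5 ratio was 1.29 ± 0.14 in burn and 1.22 ± 0.10 in NC (SD, n = 6 and 4). On that scale Psmb10 over Psmb7 was 1.71 ± 0.10 in burn and 1.77 ± 0.24 in NC. Whether the inducible gene is above or below its constitutive partner in the Psmb8 pair therefore turned with the length. For Psmb9 over Psmb6 both lengths gave a ratio below 1.

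In the alpha ring, 6 of 7 genes had a higher fitted value in burn, with a median log2 difference of 0.03 and a range of -0.02 to 0.10. All 4 structural beta genes had higher values, from 0.01 to 0.14, the largest in Psmb4. All 6 ATPases, the motor that unfolds substrates, had higher values, from 0.03 to 0.08. None of these genes passed in edgeR, and the lowest adjusted p in each of these roles was 0.764, 0.763 and 0.772 for the alpha ring, structural beta and ATPase genes.

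The non-ATPase subunits held the members with the smallest p in the positive direction, none of which passed. Psmd2, a scaffold of the base that binds ubiquitin-like domains, stood at 115 to 129 CPM in burn with a median of 123, and at 86.2, 115, 125 and 109 CPM in NC 1 to 4. NC 1, 2 and 4 lay below every burn library, NC 2 by less than 0.1 CPM, and NC 3 lay among them. The edgeR log2 difference was 0.18 (SE 0.10) with an adjusted p of 0.509, and without NC 1 the difference was 0.08. Psmd12, a lid subunit, stood at 37.1 to 45.2 CPM in burn with a median of 38.5, and at 31.7, 32.2, 40.5 and 39.0 CPM in NC 1 to 4. NC 1 and 2 were the low libraries here, and the edgeR log2 difference was 0.14 with an adjusted p of 0.600, and 0.06 without NC 2.

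Psmd1, the other large scaffold of the base, stood at 47.9 to 60.6 CPM in burn with a median of 55.3, and at 46.9, 48.6, 51.8 and 53.6 CPM in NC 1 to 4. Its edgeR log2 difference was 0.11 with an adjusted p of 0.642, and 0.05 without burn 2. Psmd3, a lid subunit, stood at 59.2 to 69.7 CPM in burn with a median of 63.5, and at 46.5, 61.1, 70.6 and 59.1 CPM in NC 1 to 4. Its edgeR log2 difference was 0.11 with an adjusted p of 0.740, and 0.0074 without NC 1. The groups overlapped for Psmd1, with its 3 highest values in burn libraries, and for Psmd3 the burn values lay inside the NC range.

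In the negative direction the smallest p belonged to Psme3ip1, Psmd8, Psme3 and Psmd4, and none passed in edgeR. Psmd8, a lid subunit, stood at 97.7 to 113 CPM in burn with a median of 107, and at 86.2, 109, 139 and 105 CPM in NC 1 to 4. Psmd4, a ubiquitin receptor, stood at 109 to 132 CPM in burn with a median of 120.3, and at 88.3, 134, 159 and 112 CPM in NC 1 to 4. In both genes NC 3 was the highest and NC 1 the lowest library, and the edgeR log2 differences of -0.05 and -0.04 turned positive, to 0.06 and 0.08, without NC 3. Psme3ip1 stood at 32.5 to 39.4 CPM in burn with a median of 34.8, and at 35.2, 34.9, 41.8 and 36.1 CPM in NC 1 to 4, with an edgeR adjusted p of 0.745.

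Psme3 had the widest spread of the tested members. It stood at 257 to 372 CPM in burn with a median of 336, and at 148, 487, 350.1 and 372 CPM in NC 1 to 4. NC 2 was 3.28 times NC 1, and both lay outside the burn range. The edgeR log2 difference was -0.08 (SE 0.25, 95% interval -0.62 to 0.47), and it was -0.32 without NC 1 and 0.13 without NC 2. The haemoglobin share of counts was 7.17% in NC 1 and 12.8% in NC 2, the lowest and highest shares of the 10 libraries, and 8.33% in burn 6, which had the lowest burn value of Psme3. In burn 1 to 5 the haemoglobin share was 12.4%, 8.48%, 10.1%, 9.24% and 8.72%. Psme3 stood at 333, 339, 372, 345 and 286 CPM in these libraries. The haemoglobin share was 12.2% in NC 3 and 9.90% in NC 4. The part of red cell RNA in the Psme3 values was not tested. Psme4, the large single-chain activator, had NC 3 as its lowest library, with 102 to 138 CPM in burn and 104, 131, 101 and 113 CPM in NC 1 to 4.

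The NC libraries differed among themselves in these genes. NC 1 was the lowest of the 10 libraries for 38 of 44 members, where it was the lowest for 24.7% of all genes tested. NC 3 was the highest for 38 of 44 members, where it was the highest for 17.2% of all genes. Both held for 33 of 44 members and for 8.92% of all genes. The burn libraries lay wholly inside the NC range for 37 of 44 members, where this was so for 31.3% of all genes. On the log2 scale, members had a median SD of 0.09 across burn and 0.31 across NC, and over all genes tested it was 0.21 in burn and 0.34 in NC. The SD in NC was the larger in 43 of 44 members, and in 75.8% of all genes.

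**Figure D4:**
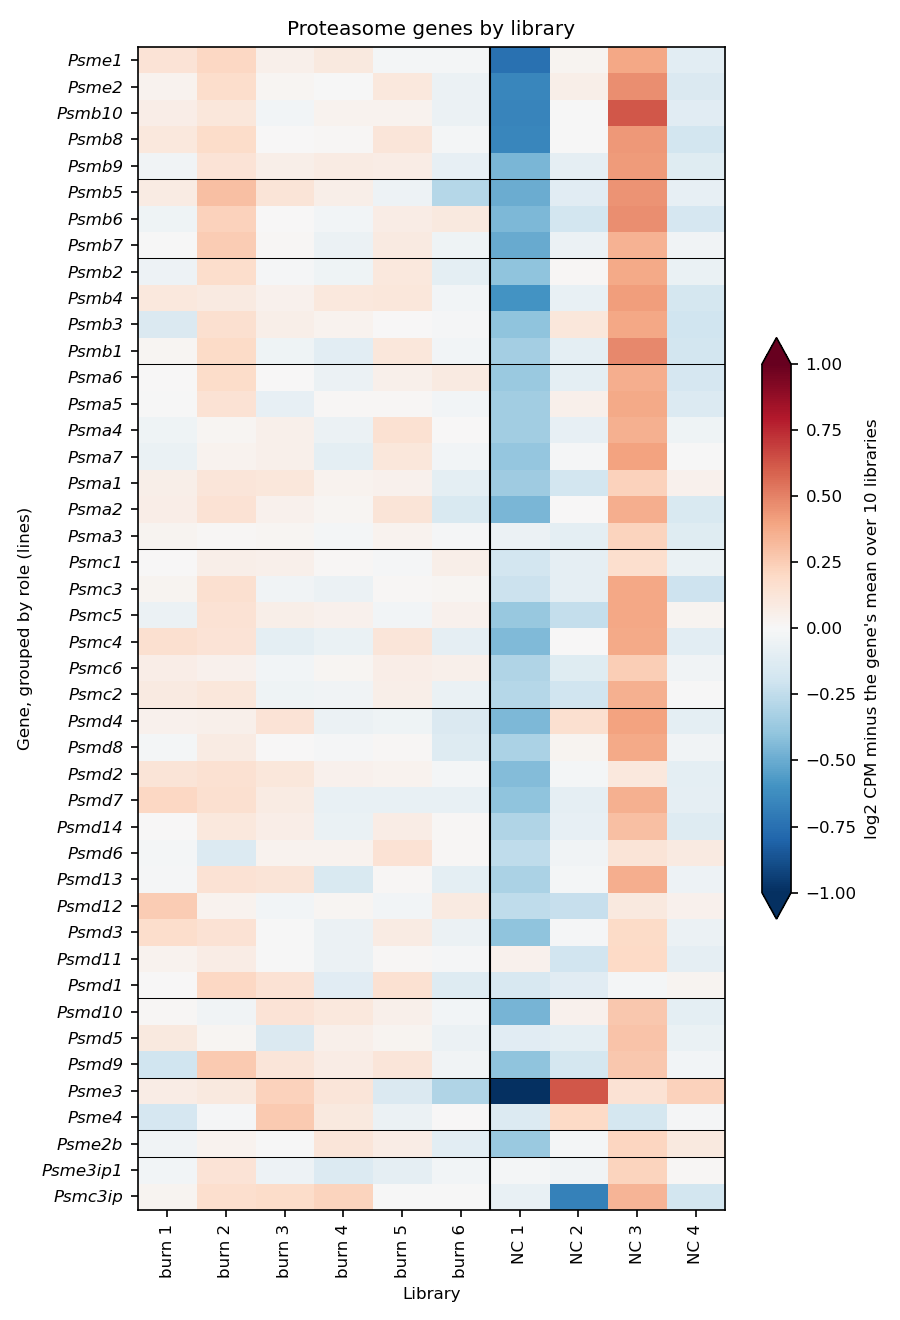
Log2 CPM of 44 proteasome genes minus each gene's mean over the 10 libraries, with genes in rows by role and the 6 burn libraries left of the 4 NC libraries. NC 1 is blue and NC 3 red in most rows, and the median deviation of the members was -0.38 in NC 1 and 0.36 in NC 3.

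The immunoproteasome and PA28 genes spanned a wider range within NC than the constitutive subunits. NC 3 over NC 1 was a median of 2.17-fold for those 5 genes, 1.63-fold for the 31 constitutive subunits and 0.964-fold for all genes tested. The values were 2.43-fold for Psmb10, 2.20-fold for Psme1, 2.17-fold for Psme2, 2.12-fold for Psmb8 and 1.84-fold for Psmb9. The first 4 of these 5 exceeded every constitutive subunit, of which Psmb4 had the largest fold at 2.02. Such folds were not limited to the immunoproteasome and PA28 genes. Psme3 had 2.36-fold, though the other activator Psme4 had 0.970-fold. The 13 assembly factors and associated proteins had a median of 1.49-fold and a maximum of 2.23-fold, in Psmg4. The 7 T cell markers had a median of 2.16-fold. The ratio of the summed FPKM of the 5 genes to that of the constitutive subunits was 0.247 to 0.262 in burn, and 0.2002, 0.261, 0.271 and 0.243 in NC 1 to 4, so NC 1 and NC 4 stood below and NC 3 above the burn libraries. These are comparisons of single libraries and were not tested. NC 1 and NC 3 were taken after seeing that they were the lowest and highest libraries for most members. A fold of the members above that of all genes therefore follows from the choice.

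Among roles, the catalytic constitutive genes had a median NC 3 over NC 1 fold of 1.89, the structural beta genes 1.74, the alpha ring 1.66, the ATPases 1.54 and the non-ATPases 1.52. NC 1 was not the lowest library for Psmd11, Psma3, Psmd5, Psme4, Psmc3ip and Psme3ip1. NC 3 was not the highest for Psmd1, Psmd2, Psmd6, Psmd12 and Psme4, which peaked in a burn library, nor for Psme3, which peaked in NC 2. Within burn, the members were highest in burn 2, with a median deviation of 0.14, and lowest in burn 6, at -0.03.

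Cell type markers and RNA composition differed among the same libraries. The summed CPM of 7 T cell markers was 955 to 1274 in burn, and 798, 1150.0, 1616 and 896 in NC 1 to 4, so the extremes of the 10 libraries on this list were NC 1 and NC 3 too. The summed CPM of 6 neutrophil markers was 628 to 2163 in burn, and 5365, 509, 844 and 4233 in NC 1 to 4. NC 4 shared the high neutrophil sum of NC 1. Its median deviation on the members was -0.09, lower than in every other library except NC 1, at -0.38. The summed CPM of 6 natural killer cell markers was 191 to 283 in burn, and 306, 483, 529 and 168 in NC 1 to 4. The summed CPM of 6 platelet markers was 2030 to 4295 in burn, and 10078, 5463, 5096 and 2343 in NC 1 to 4. Among the marker lists, only the T cell sum had both of its extremes in NC 1 and NC 3. B cell markers summed to 1810 to 2667 CPM in burn, and to 1777, 1731, 1756 and 2258 CPM in NC 1 to 4. Monocyte markers summed to 3701 to 5703 CPM in burn, and to 4885, 4453, 5263 and 4222 CPM in NC 1 to 4. Red cell markers were lowest in NC 1 and highest in NC 2. Mitochondrial ribosomal RNA took 1.39% to 2.60% of the counts in burn, and 6.53%, 3.27%, 3.48% and 1.30% in NC 1 to 4. The median deviation over all genes was -0.0079 in NC 1 and -0.0045 in NC 3. The part of cell makeup and RNA quality in the proteasome values was not tested, and in bulk blood fewer cells of a type and less RNA per cell cannot be told apart.

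The small differences between burn and NC moved with the libraries and settings used. The median log2 difference of the 5 immunoproteasome and PA28 genes, 0.06 in the full set, came to -0.05 when NC 1 was left out, -0.02 without NC 4, 0.01 without burn 2 and 0.23 without NC 3. That of the constitutive subunits, also 0.06, was -0.04 without NC 1, -0.01 without NC 4, 0.0027 without burn 2, 0.02 without NC 2 and 0.15 without NC 3. With NC 1 and NC 3 left out together, a setting chosen after seeing the data, the medians were 0.09 and 0.09, against -0.01 over all genes tested. In each of these fits 0 members passed in edgeR. With all 10 libraries, the medians of the 2 groups of genes were 0.12 and 0.11 with library totals alone, and 0.02 and 0.01 with no filter on low counts. The median over all genes tested moved too, from 0.02 to 0.07 with library totals alone and to -0.02 with no filter.

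Genes that work with the proteasome also held 0 past the threshold. Of 13 assembly factors and associated proteins, 10 had higher and 3 lower values in burn, with a median log2 difference of 0.05. NC 1 was the lowest library for 9 of the 13 and NC 3 the highest for 7. Ube3c, a ubiquitin ligase that acts on the proteasome, had an unadjusted p of 0.0478 in edgeR and an adjusted p of 0.443, with means of 37.6 ± 1.9 CPM across burn, against 33.7 ± 2.4 CPM across NC (SD). Ecpas, a proteasome adaptor, averaged 90.3 ± 6.3 CPM across burn, against 84.3 ± 8.7 CPM across NC. NC 3 was the lowest library for both Ube3c and Ecpas. Sem1, a small lid subunit, averaged 59.6 ± 4.0 CPM across burn, against 56.0 ± 10.9 CPM across NC.

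Among 7 regulators of proteasome gene expression, 4 had higher and 3 lower values, with 0 past the threshold. NC 3 was the highest library for 0 of the 7, and their median NC 3 over NC 1 fold was 0.906. Nfe2l1, the factor that raises proteasome genes when the protease is inhibited, averaged 82.4 ± 5.6 CPM across burn, against 77.6 ± 4.8 CPM across NC. Ddi2, the protease that activates it, averaged 129.6 ± 7.4 CPM across burn, against 119.7 ± 19.7 CPM across NC. Nfe2l2, which encodes NRF2, stood at 95.4 to 99.7 CPM in burn with a median of 97.0, and at 121, 94.2, 109 and 121 CPM in NC 1 to 4. NC 2 lay below all burn libraries and the other NC libraries above them, and the edgeR log2 difference was -0.20 (SE 0.08) with an unadjusted p of 0.0317 and an adjusted p of 0.411.

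Of 11 genes of class I peptide loading, 8 had higher and 3 lower values in burn, with a median log2 difference of 0.06 and 0 past the threshold. NC 1 was the lowest library for 9 of the 11 and NC 3 the highest for 8. Tap1, the peptide transporter next to Psmb9, stood at 167 to 187 CPM in burn with a median of 175, and at 117, 165, 189 and 170.4 CPM in NC 1 to 4. Erap1, which trims peptides, averaged 123.2 ± 4.7 CPM across burn, against 113.1 ± 5.6 CPM across NC, and Tapbpl, a peptide editor, 38.1 ± 1.1 CPM across burn, against 35.1 ± 5.8 CPM across NC.

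Of 13 genes of the interferon-gamma axis, the pathway that induces the immunoproteasome, 4 had higher and 9 lower values, with a median log2 difference of -0.05 and 0 past the threshold. Ifng was covered by 24 to 67 reads per library in burn, and by 70, 79, 115 and 44 in NC 1 to 4, with an edgeR log2 difference of -0.86 (SE 0.34) and an adjusted p of 0.407. Cxcl9, an induced chemokine, was covered by 5 to 21 reads per library in burn, and by 6, 58, 35 and 12 in NC 1 to 4, with an edgeR adjusted p of 0.403. The groups overlapped for both genes, and NC 2 and NC 3 were their highest libraries. Irf8, a transcription factor of myeloid and B cells, stood at 152 to 214 CPM in burn with a median of 177, and at 148, 137, 157 and 163 CPM in NC 1 to 4, with an edgeR adjusted p of 0.459.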

How the data were processed

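RNA was isolated with TRIzol and sequenced as paired-end mRNA libraries, per the labels' protocols. For each gene and library the authors deposited a read count and an FPKM, per the file headers. The submitters' processing notes name mm10, and the sources used here give neither aligner nor counting program. For all 46 members the deposited FPKM equalled the count scaled by library total and the summed exon length in GENCODE mouse release M21, within 0.01 bases of length.

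Counts were tested with edgeR 4.0.16 in R 4.3.3: filterByExpr with a minimum count of 10, TMM scaling, the quasi-likelihood F test of burn against NC, and Benjamini-Hochberg adjustment over all 17268 genes tested. CPM values are TMM-scaled. The SE is the log2 difference over the square root of F. Alternatives used DESeq2 1.42.0, limma 3.58.1 on log2(FPKM + 1) and log2(FPKM + 0.1), other scalings and filters, a replicate block and left-out libraries. No pair of replicates agreed within sampling noise by a chi-square test of counts. Named genes were the 5 immunoproteasome and PA28 genes, the 3 constitutive catalytic genes, the 4 other members with the smallest p in each direction, and the 3 genes with the smallest p in each related list; further members are named for their library order after their values were seen. The members and lists were chosen with earlier results of these data known.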

Additional observations from a re-analysis of the deposited data

How the results depend on the processing

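With edgeR the number of genes called was 0; DESeq2 called 85, limma on log2(FPKM + 1) called 1 and on log2(FPKM + 0.1) called 1, and leaving out 1 library gave 0 to 10 (10 without burn 1, 3 without NC 4). Member genes called stayed at 0 in all 20 alternatives, among them the one without both NC 1 and NC 3, which was chosen after seeing the data. Leaving out 1 library moved the median log2 difference of the 5 immunoproteasome and PA28 genes between -0.05 and 0.23 and that of the constitutive subunits between -0.04 and 0.15. With all libraries these medians were 0.16 and 0.12 with each limma fit and 0.03 and 0.03 with haemoglobin counts left out of scaling. Other scalings and filters gave 0.01 to 0.12. The median over all genes tested was 0.05 and 0.08 with limma at the pseudocounts 1 and 0.1, and -0.0086 with haemoglobin left out. With other scalings and filters it was -0.02 to 0.07. The sign of single genes near 0 turned, with no call at stake. Psmb10 had 0.056 with library totals alone, 0.11 and 0.12 with limma at the pseudocounts 1 and 0.1, 0.086 with the replicate block and 0.058 without both NC 1 and NC 3. With library totals and the 2 limma fits, Psmd8 had 0.0079, 0.023 and 0.024, and Psmd4 0.018, 0.042 and 0.044. Psme3 had 0.085 and 0.087 with the limma fits and 0.15 with the replicate block, and Psmd4 0.039 with the block. The cause was not tested. Leaving out 1 library gave ranges of -0.032 to 0.30 for Psmb8, -0.054 to 0.22 for Psmb9, -0.17 to 0.23 for Psmb10, -0.042 to 0.28 for Psme1, -0.10 to 0.23 for Psme2, -0.059 to 0.24 for Psmb5, -0.013 to 0.29 for Psmb6, -0.048 to 0.20 for Psmb7, -0.15 to 0.057 for Psmd8, -0.32 to 0.13 for Psme3, -0.17 to 0.076 for Psmd4, 0.080 to 0.22 for Psmd2, 0.061 to 0.17 for Psmd12, 0.048 to 0.15 for Psmd1, 0.0074 to 0.17 for Psmd3 and -0.15 to -0.046 for Psme3ip1. With the APPRIS transcript length, chosen after seeing the data, the mean ratios over all libraries were 1.26 for Psmb8/Psmb5, 0.883 for Psmb9/Psmb6 and 1.73 for Psmb10/Psmb7. Replicate numbers 1 to 4 occur in both groups, but the labels do not say that they pair libraries. Deviations of same-numbered libraries correlated at -0.05, -0.04, -0.07 and 0.34, and 1 of 4 NC libraries correlated best with its own number. With the replicate block 0 genes and 0 members were called, and the medians were 0.12 for the immunoproteasome and PA28 genes and 0.08 for the constitutive subunits. Psma8 and Psmb11 had 10 counts or fewer in every library and were not tested.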
